A study of Mus musculus with 1753 samples.

Results

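The cells described here were 45 paramysial cells from the soleus, a slow postural muscle of the calf, and they were compared with 108 endomysial cells that were dissociated, sorted and sequenced with them on the same plate. Paramysial is the name the study gave to fibroblasts that it placed between the perimysium, the sheath around fibre bundles, and the endomysium, the sheath around each fibre. The members were chosen by the cluster number in the sample labels: cluster 4 was paramysial, and clusters 1, 3, 5, 6 and 8 were endomysial. Of 1753 cells in the series, 181 came from this plate, and 153 of them were used in the comparison. The endomysial cells split into 21 of cluster 1, 47 of cluster 3, 27 of cluster 6 and 13 of cluster 8, with 0 of cluster 5. The remaining plate cells were 16 perimysial cells (clusters 2 and 9), 7 of cluster 10 and 5 mural cells.

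All cells of the plate carried the same labels: male mouse, soleus, strain "PdgfraGFP - PdgfrbGFP pool", 10 to 20 weeks of age, with no treatment named. The soleus muscles of a Pdgfra-H2BGFP and a Pdgfrb-GFP reporter mouse had been pooled before dissociation, and single cells without the endothelial marker CD31 were sorted by reporter fluorescence or by antibodies to the PDGF receptors α and β. The labels do not say which mouse a cell came from, and the sort selected for the genes Pdgfra and Pdgfrb, so that their levels are partly set by the gate. Each cell was 1 well of a Smart-seq2 plate, a full-length cDNA method without molecular identifiers. Because the suspension and the plate were single, and because the clusters had been built from these same counts, differences between the groups are given as descriptions and no test was made. Intervals on shares of cells are exact (Clopper-Pearson) 95% binomial intervals and cover counting error only.

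Fibroblasts build the connective tissue of muscle by secreting fibrillar collagens, the proteins that organise collagen into fibrils and the enzymes that trim and crosslink them. Periostin, thrombospondin 4 and collagen XII are matrix proteins of tendon, fascia and other tissue that bears tension. Fibro-adipogenic progenitors lie between the fibres and are known for secreting complement proteins, chemokines and growth factors. The study anticipated such cells among its endomysial clusters and left this to further analysis.

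Counts are given as scaled counts, meaning reads of a gene per 500000 reads assigned to genes in that cell, the spike-in RNAs left out. A gene was called detected in a cell at 100 scaled counts, and 1699 genes detected in at least 30% of the cells of either group were compared. The log2 fold is that of the mean scaled counts of both groups, each with a pseudocount of 1, and a gene was past the fold at a log2 fold of 2 or more in either direction. Paramysial cells had higher levels of 24 genes (1.41% of those compared) and lower levels of 17 genes (1.00%), 41 in all (2.41%). The median log2 fold over the 1699 genes was −0.07, 745 of them (43.8%) were above 0, and 90% of the genes lay between −1.09 and 1.05. The 40 paramysial and 101 endomysial cells with at least 200000 counts were also thinned to that depth. In these, 20 of the higher and 16 of the lower genes were still past the fold. The 5 and 7 shallower cells were left out, so this check changed the cells as well as the depth.

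The plate was read deeply, at 53889 to 1055869 counts per paramysial cell and 79862 to 1050531 per endomysial cell, with medians of 665294 and 478544.5. Paramysial cells also had more detected genes, with a median of 7228 against 6067.5 genes with a count, and the gap remained at equal depth (6024 in 40 cells against 4988 in 101 cells at 200000 counts, with 5 and 7 shallower cells left out). Per read of the ERCC spike-ins, RNAs added in equal amount to each well, paramysial cells gave a median of 171 gene counts and endomysial cells 107. Scaling to the spike-ins in place of the total therefore moved the median log2 fold of these 1699 genes from −0.07 to 0.69, and every fold given here is relative to the total counts of a cell. The groups were unevenly placed on the plate, since 27 of 77 cells in well rows G to K were paramysial (35.1%) and 18 of 104 in rows L to P (17.3%), and all 16 perimysial cells lay in rows G to K. What differed between these rows was not given in the labels, so folds within each set of rows are given for the main genes.

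**Figure D1:**
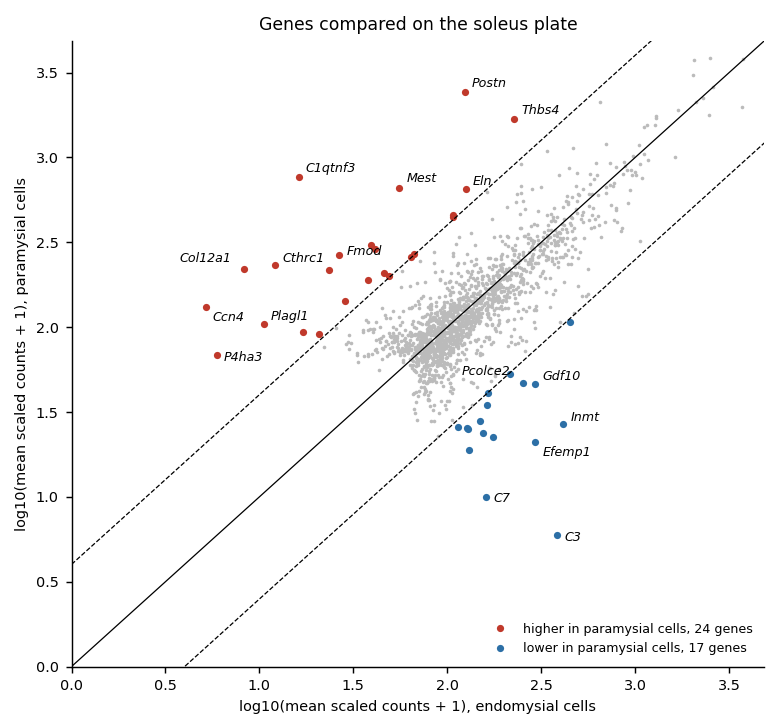
Mean scaled counts of the 1699 genes compared in the 45 paramysial cells (vertical axis) and the 108 endomysial cells (horizontal axis), both as log10 of the mean plus 1. The solid line marks equal levels and the dashed lines a 4-fold difference (log2 fold of 2). The 24 genes past the fold in the paramysial direction are red and the 17 in the other direction blue, and most other genes lie close to the line of equality.

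The genes with the highest folds encoded secreted matrix proteins. Of the 24 higher genes, C1qtnf3 and Postn had the most paramysial cells above all endomysial cells. C1qtnf3 encodes a secreted protein of the C1q and TNF related family, and Postn encodes periostin, a matricellular protein that binds collagen and integrins. C1qtnf3 (ENSMUSG00000058914) lies on the plus strand of chromosome 15 from 10952332 to 10980150, and Postn (ENSMUSG00000027750) on the plus strand of chromosome 3 from 54361109 to 54391037 (GRCm38). Their promoters, from 250 bases before to 50 after the start of the gene in RefSeq (build GRCm38.p6), are shown for these genes because most paramysial cells exceeded every endomysial cell in both, and capitals mark the letters TATAAA, the core of the TATA box.
C1qtnf3 promoter (chr15:10952082-10952381, plus strand): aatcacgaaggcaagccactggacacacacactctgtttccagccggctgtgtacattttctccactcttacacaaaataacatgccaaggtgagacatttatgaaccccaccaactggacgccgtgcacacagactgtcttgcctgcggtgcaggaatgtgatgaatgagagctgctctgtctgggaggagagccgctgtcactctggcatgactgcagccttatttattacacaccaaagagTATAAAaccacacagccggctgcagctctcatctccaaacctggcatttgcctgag
Postn promoter (chr3:54360857-54361156, plus strand): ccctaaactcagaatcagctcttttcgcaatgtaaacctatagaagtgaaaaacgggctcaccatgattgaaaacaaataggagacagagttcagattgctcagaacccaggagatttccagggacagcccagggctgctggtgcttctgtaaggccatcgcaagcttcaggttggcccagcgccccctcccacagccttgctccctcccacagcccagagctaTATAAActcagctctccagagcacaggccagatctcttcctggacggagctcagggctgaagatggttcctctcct
The match begins 6 bases before the start in C1qtnf3 and 26 bases before it in Postn. TATAAA was searched on both strands and counted by gene, a match in any promoter of the gene being enough. Of the 24 higher genes, 16 had a promoter in RefSeq, and 5 of these had a match (31.2%). Of the 17 lower genes, 11 had a promoter there, and 5 of these had a match (45.5%). Matches were found in 150 of 1282 of the genes compared (11.7%) and in 4234 of 27025 genes of the RefSeq table (15.7%). A match is a run of letters and no measure of use of the site.

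C1qtnf3 had the highest fold of all genes compared. It ranged from 0 to 3359.9 scaled counts in paramysial cells with a median of 647, and from 0 to 187 in endomysial cells with a median of 4.96. It was detected in 31 of 45 paramysial cells (68.9%, interval 53.4 to 81.8%) and in 3 of 108 endomysial cells (2.78%, interval 0.576 to 7.90%). The paramysial group thus held cells at the endomysial level as well as 30 cells above every endomysial cell. The means were 767 and 15.2 (log2 fold 5.57), and the fold was 5.59 within rows G to K and 4.20 within rows L to P. In the 16 perimysial cells the mean was 18.5, and 0 of them were at 100 or more (a count of 0 allows a share of up to 18.75%).

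Postn was at 100 or more in every paramysial cell. Its level ranged from 204 to 10585 scaled counts with a median of 2079.6 in paramysial cells, and from 0 to 1306 with a median of 42.9 in endomysial cells. Detection was in all 45 paramysial cells (interval 92.1 to 100%) and in 26 of 108 endomysial cells (24.1%, interval 16.4 to 33.3%). The groups overlapped at their edges: 14 endomysial cells were at or above the lowest paramysial cell, and 38 paramysial cells were above the highest endomysial cell. The means were 2431 and 123 (log2 fold 4.29, with 4.84 in rows G to K and 3.72 in rows L to P). Among the endomysial clusters, the mean was 242 in cluster 1, 75.5 in cluster 3, 105 in cluster 6 and 139 in cluster 8, so that all 4 were far below the paramysial cells. Perimysial cells were between the groups, at 589.9 with 12 of 16 cells detected.

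Thbs4, which encodes thrombospondin 4, a pentameric matricellular protein of tendon and muscle, was nearly as widespread. It ranged from 11.8 to 7077 scaled counts with a median of 1513 in paramysial cells, and from 0 to 2212 with a median of 56.97 in endomysial cells. At 100 or more were 44 of 45 and 42 of 108 cells, and 9 paramysial cells exceeded all endomysial cells, so the groups overlapped more than for Postn. The log2 fold of 2.89 differed with the endomysial cells used, since cluster 3 alone had a mean of 414 against 227 over all endomysial cells. The fold was 3.96 in rows G to K and 2.27 in rows L to P. Perimysial cells had a mean of 3341, above the paramysial mean of 1684.

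Cthrc1, which encodes a secreted protein with a collagen triple helix repeat, ranged from 0 to 1451 with a median of 184 in paramysial cells and from 0 to 366 with a median of 1.46 in endomysial cells. Detection was in 27 of 45 against 3 of 108 cells (log2 fold 4.25). The fold was 5.28 in rows G to K and 2.90 in rows L to P, the widest gap between the rows among these 4 genes. Col12a1, which encodes the chain of collagen XII, a collagen that sits on the surface of fibrils, had a median of 92.9 and a highest value of 1556 in paramysial cells, against 0.828 and 197 in endomysial cells. It was detected in 22 of 45 and 2 of 108 cells (log2 fold 4.73), and 14 paramysial cells were above every endomysial cell. It was higher still in perimysial cells, with a mean of 478 against 219 and detection in 14 of 16 cells.

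Ccn4, a secreted matricellular target of WNT signalling, had medians of 87.03 and 0.687 scaled counts and was detected in 19 of 45 paramysial cells and 1 of 108 endomysial cells (log2 fold 4.67). The perimysial mean was similar to the paramysial one, at 120.3 and 131. Fmod, which encodes fibromodulin, a small proteoglycan that controls the thickness of collagen fibrils, was present in a minority of paramysial cells. It had a median of 23.1 and a highest value of 3122 in paramysial cells, and was detected in 15 of 45 of them and in 4 of 108 endomysial cells (log2 fold 3.33). It belonged more to the perimysial cells, where all 16 of 16 had it at a mean of 4146.

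A pair of enzymes of collagen assembly were also past the fold. P4ha3, a catalytic subunit of the prolyl 4-hydroxylase that stabilises the collagen helix, was detected in 16 of 45 and 1 of 108 cells, with means of 67.4 and 4.93 (log2 fold 3.53), but the fold was 3.60 in rows G to K and 0.77 in rows L to P. Lox, the lysyl oxidase that crosslinks collagen and elastin, was detected in 30 and 16 cells, with means of 287 and 40.2 (log2 fold 2.80). Eln, which encodes elastin, ranged from 0 to 4086 with a median of 152 in paramysial cells and had a median of 26.6 in endomysial cells, and it was detected in 30 of 45 and 30 of 108. Its log2 fold was 2.38 at full depth and 1.84 in the thinned cells, so it was not past the fold there. The shallow cells left out of the thinned set included wells H15, H23 and G21, with 4086, 3304 and 2631 scaled counts of Eln. The parts of depth and of the cells left out in this change were not tested. In perimysial cells its mean was 10.7, with 0 of 16 detected (a count of 0 allows a share of up to 18.75%).

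**Figure D2:**
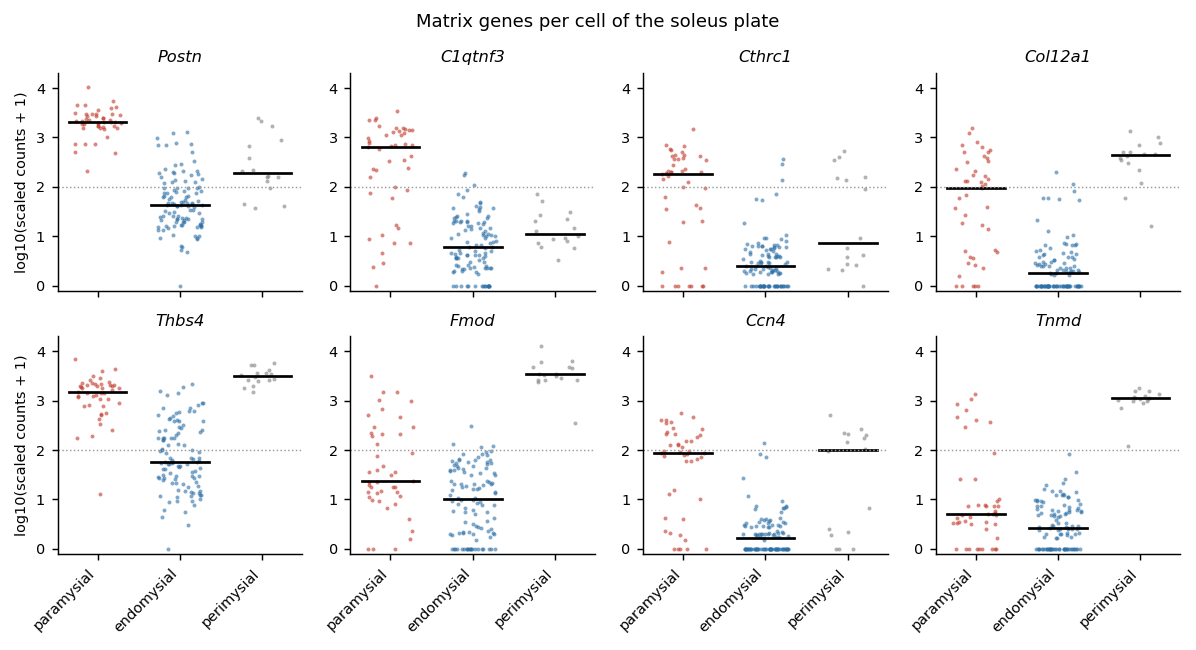
Scaled counts of 8 matrix and tendon genes in each paramysial (45), endomysial (108) and perimysial (16) cell of the soleus plate, as log10 of the scaled count plus 1. Each point is a cell, the black bar is the median, and the dotted line marks 100 scaled counts. Postn lies above the line in all 45 paramysial cells, while C1qtnf3 has a lower set of paramysial cells, and Fmod, Thbs4 and Tnmd are highest in perimysial cells.

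Of the 16 matricellular genes compared, 5 were past the fold, beside 1.41% of all genes (Postn, Thbs4, Ccn4, Cthrc1 and the fibulin Fbln7). In the other direction 0 were past it, and the median log2 fold was 0.82 beside −0.07 over all genes. Postn, Thbs4 and Cthrc1 were among the study's own markers of paramysial cells. Postn, Ccn4, Cthrc1 and Fbln7 entered the comparison only through the paramysial cells. The count of matricellular genes past the fold is therefore partly built in. All 6 fibrillar collagen genes compared were above 0, beside 43.8% of all genes, with a median of 0.75, and 0 were past the fold: Col5a2 was at 1.27, Col5a1 at 1.12, Col1a1 at 0.87, Col3a1 at 0.63 and Col1a2 at 0.60. Of 21 genes for collagen processing and crosslinking, 19 were above 0 beside the same 43.8% (median 0.46), 2 were past the fold and 1, Pcolce2, was past it in the lower direction. Of 17 elastic fibre genes, Eln and Lox were higher and Efemp1 was lower, with a median of 0.30. P4ha3, Lox and Eln entered the comparison only through the paramysial cells, and Pcolce2 and Efemp1 only through the endomysial cells. The counts past the fold in both lists, beside 1.41% higher and 1.00% lower over all genes, are therefore also partly built in. The 12 basement membrane genes had a median of 0.22 with 0 past the fold, and the 22 secretory pathway genes a median of 0.27 with 0 past the fold.

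Per kilobase of exon, the level of Postn in paramysial cells was 279 scaled counts against 14.1 in endomysial cells, and that of Thbs4 was 512 against 68.96. By the same measure Col1a1, the main chain of collagen I, was at 573 and 314, and Col3a1, the chain of collagen III, at 395 and 254. Thbs4 thus reached a level per length close to that of the collagen I gene in paramysial cells, and Sparc, which encodes a collagen-binding matricellular protein, was near 505 and 446 in the respective groups.

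Signalling genes were few. Tgfb3, a ligand of the TGF-β family, was at 269 and 65.6 (log2 fold 2.02), the higher gene closest to the limit, and was detected in 32 of 45 and 30 of 108 cells. It was 2.48 in rows G to K and 1.19 in rows L to P, and the 9 TGF-β genes compared had a median of 0.07. Ednra, the endothelin A receptor, was detected in 29 and 20 cells (log2 fold 2.04), Dio2, the deiodinase that makes active thyroid hormone, in 18 and 6 (2.45), and the LIM-domain adaptor Fhl2 in 29 and 13 (2.33). Fibin, which encodes a secreted protein, was detected in 33 and 13 cells (2.95). Msc, a basic helix-loop-helix factor also known from muscle progenitors, was detected in 16 and 9 (2.14). Leaving out the highest paramysial cell brought Tgfb3 to 1.97, Ednra to 1.98 and Msc to 1.96, just under the limit. The 4 higher genes that were no longer past the fold after thinning were Eln, Fbln7 (2.08, thinned 1.86), Pamr1 (2.06, thinned 1.82) and the hyaluronan receptor Cd44 (2.03, thinned 1.96). The paramysial cell with the most of each gene was among those too shallow to be thinned (H15 for Eln, O14 for Fbln7, H23 for Pamr1 and Cd44). Just outside the limit were Heyl at 1.95, Col8a1 at 1.94 and Peg3 at 1.89. These genes, and those beside the lower limit, were named after their values were seen.

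Imprinted genes, which are expressed from 1 parental copy and are known for high levels in fetal growth, formed the other group of higher genes. Of 10 imprinted genes compared, 4 were past the fold (1.41% over all genes) and 8 were above 0 (43.8% over all genes). The median log2 fold was 1.62 (2.34 scaled to the spike-ins). The 4 genes past the fold entered the comparison only through the paramysial cells, so their count is partly built in. Mest, which encodes a membrane protein of the α/β-hydrolase fold, ranged from 0 to 2150.0 scaled counts with a median of 505 in paramysial cells and had a median of 9.80 and a highest value of 728 in endomysial cells. It was detected in 35 of 45 paramysial and 18 of 108 endomysial cells (log2 fold 3.57, 3.74 and 3.28 in both sets of rows). Most paramysial cells were therefore above the bulk of endomysial cells, with 16 above all of them.

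Plagl1, a zinc-finger transcription factor, was detected in 18 of 45 and 2 of 108 cells, with medians of 57.5 and 0 (log2 fold 3.31). Igf2, which encodes insulin-like growth factor 2, was detected in 17 and 11 cells, with medians of 15.9 and 2.04 and highest values of 1234 and 948 (2.31). Meg3, a long noncoding RNA, was detected in 22 and 15 cells with medians of 93.6 and 1.88 (2.17). Without the paramysial cell with the most Meg3 (3118 scaled counts in well O14, a cell with 53889 counts of which 15.2% were mitochondrial), its log2 fold was 1.62 and no longer past the limit, a comparison chosen after seeing the data, as are the other values given without 1 cell. The paramysial median was reached by 6 of 108 endomysial cells for Plagl1, 24 for Igf2 and 15 for Meg3. Both groups reached 0 for each of the 3 genes.

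H19, the noncoding RNA next to Igf2, was detected in too few cells to be compared, in 11 of 45 and 1 of 108, with means of 130.5 and 5.42. The highest paramysial value, 1373, was in well O14, the same cell as for Meg3. Without the highest cell of each group, the H19 means were 102.3 in paramysial and 2.40 in endomysial cells. In perimysial cells the means were 53.7 for Mest, 0.798 for Plagl1, 1.93 for Igf2 and 0.923 for Meg3, near or below the endomysial ones. Of the 4 imprinted genes past the fold, at least 1 was detected in 40 of 45 paramysial cells and in 40 of 108 endomysial cells, and at least 2 in 28 and 5 cells. All 4 were detected in 6 paramysial cells. Igf2 shares 62.8% of its exon bases with an annotated gene that was not a row of the count table.

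Copg2, a subunit of the COPI vesicle coat, was also past the fold, with detection in 28 of 45 and 8 of 108 cells (log2 fold 3.21). It lies antisense to Mest and their exons overlap by 912 bases, 23.1% of the exons of Mest and 17.8% of those of Copg2. Across the 45 paramysial cells the levels of Mest and Copg2 had a Spearman rho of 0.965, and 0 cells had Copg2 at 100 without Mest. Whether reads were counted by strand is not given in the sources used here, so the level of Copg2 is uncertain and reads from Mest cannot be told apart from its own. The other imprinted pairs examined were lower, the highest being 0.617 for Meg3 and Rian, and rho was 0.269 for Mest and Igf2, 0.386 for Igf2 and H19, and 0.481 for Igf2 and Meg3.

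**Figure D3:**
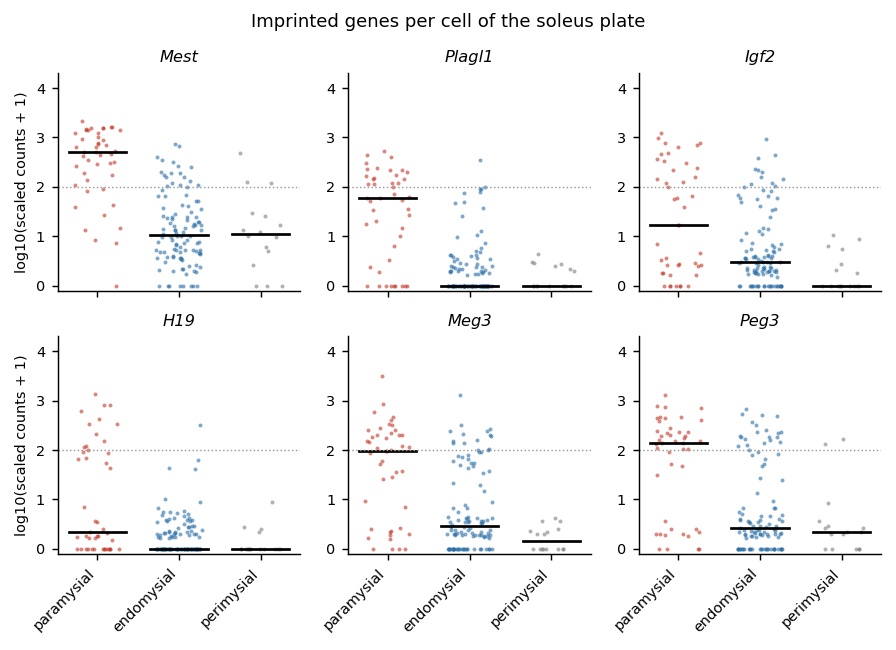
Scaled counts of 6 imprinted genes in each paramysial (45), endomysial (108) and perimysial (16) cell of the plate, as log10 of the scaled count plus 1, with medians as black bars and 100 scaled counts as a dotted line. Mest is above the line in 35 of 45 paramysial cells and 18 of 108 endomysial cells, while Igf2 and H19 are above it in 17 and 11 paramysial cells.

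The lower genes began with the complement system, the cascade of plasma proteins that marks and lyses targets. C3, the component on which all pathways converge (ENSMUSG00000024164, minus strand of chromosome 17 from 57203970 to 57228136, GRCm38), ranged from 0 to 74.2 scaled counts with a median of 2.65 in paramysial cells and from 0 to 2540.2 with a median of 44.97 in endomysial cells. It was detected in 0 of 45 paramysial cells (a count of 0 allows a share of up to 6.67%) and in 48 of 108 endomysial cells (44.4%, interval 34.9 to 54.3%). The endomysial cells were widely spread, with 51 of them above all paramysial cells and the others inside the paramysial range. The means were 4.93 and 385 (log2 fold −6.02, with −6.47 in rows G to K and −5.46 in rows L to P). By cluster, C3 had a mean of 829 in cluster 1, 231 in cluster 3, 49.3 in cluster 6 and 923 in cluster 8, so that the mean of the lowest endomysial cluster was still above the paramysial one. The median of cluster 6, 6.16, was close to the paramysial median.

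C7, a component of the membrane attack complex, had a median of 1.12 and a highest value of 114 in paramysial cells and 29.7 and 1242 in endomysial cells. Of the paramysial and endomysial cells, 1 of 45 and 37 of 108 were at 100 or more (log2 fold −4.01). Cluster 8 had the highest mean, 710.1, and cluster 3 the lowest, 51.9. Of the 8 complement genes compared, 2 were past the fold (C3 and C7) beside 1.00% of all genes, 0 were above 0 beside 43.8%, and the median log2 fold was −1.49. C3 and C7 were detected in under 30% of paramysial cells and entered the comparison only through the endomysial cells, so this count is partly built in. Other abundant members were Serping1, the inhibitor of the first component, at −0.70, and C1s1, a protease of that component, at −0.27. Scaled to the spike-ins, the median of the 8 genes was −0.83, but C1s1 turned to 0.53, below the 0.69 of all genes. Among 6 chemokine and cytokine genes 0 were past the fold and 0 above 0, beside the same shares of all genes, with a median of −0.95 (−0.34 scaled to the spike-ins). The count above 0 can also be partly built in, by genes that entered the comparison only through the endomysial cells.

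Inmt, which encodes a methyltransferase of indole amines, ranged from 0 to 577 with a median of 7.14 in paramysial cells and from 0.767 to 1413 with a median of 350.0 in endomysial cells. It was detected in 3 of 45 and 64 of 108 cells (log2 fold −3.95), which became −4.86 without the highest paramysial cell, and its cluster means ran from 155 in cluster 6 to 1021 in cluster 8. Efemp1, which encodes the elastic fibre protein fibulin 3, had medians of 3.61 and 13.4 and was detected in 2 and 48 cells (log2 fold −3.80). Its endomysial cells were unlike each other, since the mean of cluster 6 (18.98) was close to the paramysial mean of 20.1 and that of cluster 1 was 901.

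Gdf10, a ligand of the BMP branch of the TGF-β family and a marker of fibro-adipogenic progenitors, was detected in 6 of 45 and 43 of 108 cells, with means of 45.3 and 294 (log2 fold −2.67). It too depended on the cluster, with 34.8 in cluster 3, below the paramysial mean, and 1066 in cluster 8. Pcolce2, an enhancer of the protease that trims procollagen, was detected in 7 and 65 cells, with medians of 2.47 and 168 (−2.43). Xdh, the enzyme of purine breakdown that makes uric acid, was detected in 5 and 53 cells (−2.43), and Pla1a, a phospholipase, in 2 and 46 (−2.95).

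The other 4 genes named by the rule were Lims2, an adaptor of focal adhesions (5 of 45 and 58 of 108 cells, log2 fold −2.69), the calcium-binding Efhd1 (1 and 42, −2.77), Ndrg1 (5 and 43, −2.36) and Olfml2a (5 and 34, −2.33). Olfml2a was the least even of these across the plate, at −4.70 in rows G to K and −0.78 in rows L to P. Just inside the lower limit was Errfi1 at −2.01, and just outside it Scara5 at −1.97 and Klf2 at −1.95, with Gm20547, whose exons lie wholly within those of Cfb and C2, at −2.02 and −1.94 after thinning.

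Of the 16 fibro-adipogenic and universal fibroblast markers compared, 1 was past the fold (Gdf10), 1 was above 0 (Dpt, 0.32) beside 43.8% of all genes, and the median log2 fold was −0.96 (−0.24 scaled to the spike-ins). The 12 pan-fibroblast markers had a median of 0.26 with 0 past the fold. Among them were the proteoglycan genes Dcn (means of 1772 and 2470.5) and Lum (874 and 788). Of the 12, 7 were above 0, beside 43.8% of all genes. At a log2 fold of 1 there was 1 higher and 3 lower, beside 5.59% and 5.94% of all genes. The median paramysial cell had 11 of them at 100 or more scaled counts, and the median endomysial cell 10. Pdgfra was at −1.03 and was detected in 18 of 45 paramysial and 76 of 108 endomysial cells. The 8 genes of retinoid, steroid and xenobiotic metabolism had a median of −1.29 and the 10 fibroblast transcription factors one of −0.67, with 0 past the fold in either list. Scaled to the spike-ins, these medians were −0.49 and 0.26, so that the sign of the transcription factors turned, although both stayed below the 0.69 of all genes.

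**Figure D4:**
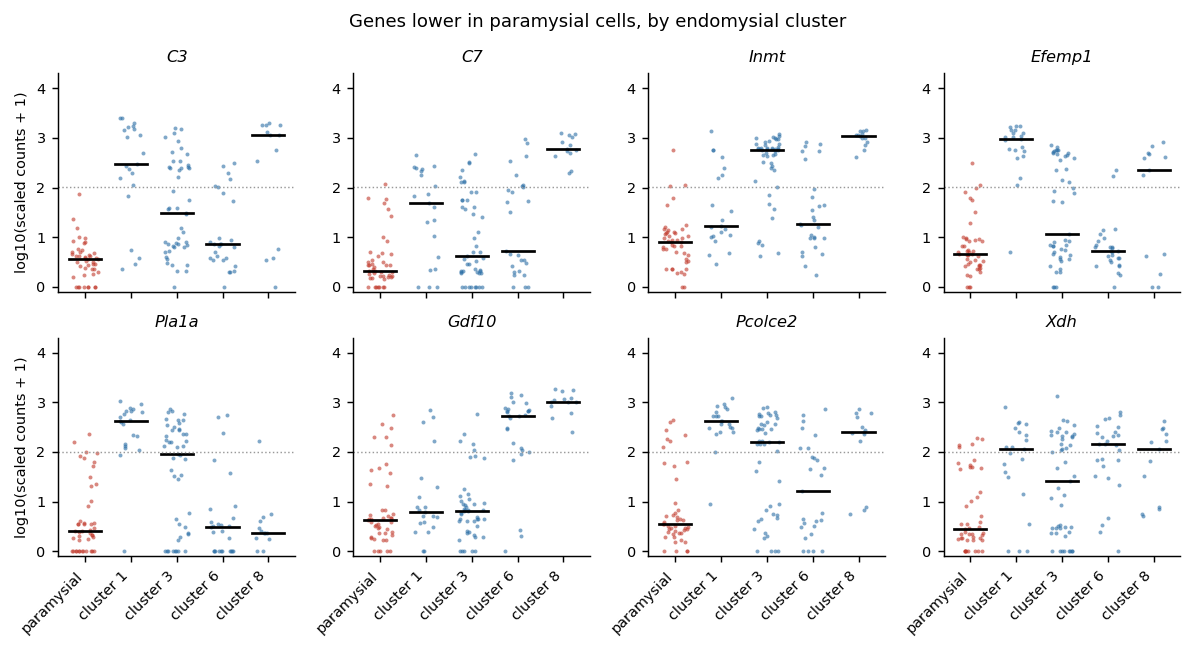
Scaled counts of 8 genes lower in paramysial cells, in each paramysial cell (45) and in the cells of endomysial clusters 1 (21), 3 (47), 6 (27) and 8 (13), as log10 of the scaled count plus 1, with medians as black bars and 100 scaled counts as a dotted line. C3 is below the line in all paramysial cells, and Efemp1 and Gdf10 differ as much among the endomysial clusters as between the groups.

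The cluster label was next set against marker genes. The markers used for paramysial cells in the study were Postn, C1qtnf3, Cthrc1, Thbs4, Col12a1 and Pdgfra, and they were chosen partly on these cells, so that their levels are no independent evidence. At least 3 of these 6 genes were detected in 41 of 45 paramysial cells (91.1%) and in 10 of 108 endomysial cells (9.26%), with a median of 4 and 1 markers per cell. Perimysial cells came close, with at least 3 in 13 of 16 cells, and Thbs4 and Col12a1 in 16 and 14 of them. Of the 20 higher genes named here, the median paramysial cell had 11 at 100 or more scaled counts, the median endomysial cell 2 and the median perimysial cell 7.5. All 45 paramysial cells had at least 4 of them, against 24 of 108 endomysial cells. Of the 12 lower genes named here, the median paramysial cell had 0 and the median endomysial cell 5. Both lists were chosen by their folds between these same paramysial and endomysial cells. Their counts per cell in these groups follow from that choice and are no evidence for the label.

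Perimysial genes were present in part of the paramysial cells. Of 12 perimysial markers, 9 of 45 paramysial cells had at least 4 and 19 had 0, while no endomysial cell had more than 2 and every perimysial cell had at least 4. Tnmd, the tendon protein tenomodulin, was detected in 8 of 45 paramysial, 0 of 108 endomysial and all 16 perimysial cells, with means of 126, 4.71 and 1120.1. Scx, the tendon transcription factor scleraxis, was detected in 8, 0 and 7 cells, and Tnc, the matrix protein tenascin C, in 13, 0 and 8. Comp went against this order, with means of 121, 195 and 2015, so that endomysial cells exceeded paramysial ones. None of these genes was among those compared.

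The paramysial cell with the most perimysial markers, in well H23, had 9 of them at 120595 counts, together with 10585 scaled counts of Postn, 2525 of C1qtnf3 and 1339 of Tnmd. The cell in well N24 had 7 perimysial markers with 8.01 scaled counts of C1qtnf3. Cells with at least 4 perimysial markers made up 7 of 27 paramysial cells in rows G to K and 2 of 18 in rows L to P. Wells that held 2 cells were not searched for, and their part in these values was not tested.

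Lists of markers of cell types outside the fibroblasts were summed in each cell. The summed scaled counts of 12 mural markers ranged from 0.792 to 1735 (median 120) in paramysial cells and from 0 to 726 (median 39) in endomysial cells, against 7732 to 12438 in the 5 mural cells. The endothelial sum had a highest value of 281 and 603 in both groups, and the immune sum one of 34 and 298. The 23 myofibre markers had medians of 79 and 54, but they passed 1000 in 2 paramysial cells and 1 endomysial cell, with a highest sum of 9306 in 1 paramysial cell. These cells included wells O14 and L13, with 5530 and 2924 scaled counts of Acta1. The same wells were the paramysial and the endomysial cell with the most Meg3. The Schwann cell list had medians of 286 and 432, higher than the others, of which the myelin gene Pmp22 alone had means of 285 and 440.1, while Sox10, the defining factor of Schwann cells, had 0 counts in both groups. The satellite cell list had a median of 125 and 3, and Msc was its only member among the genes compared. The part of these RNAs in the folds was not tested.

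Within the 45 paramysial cells, the gene whose level was most like that of Postn was Thbs4 (Spearman rho 0.783), followed by Cilp, a matrix protein of cartilage (0.759), Col1a2 (0.726), Col12a1 (0.725) and the proteoglycan gene Bgn (0.694). The cells share 1 library preparation and their depth differs, and the rho with total counts was −0.288 for Postn, −0.245 for Thbs4, −0.234 for Cilp, −0.554 for Col1a2, −0.0273 for Col12a1 and −0.467 for Bgn. Cilp was at a log2 fold of 1.71 between the groups and Bgn at 0.45. C1qtnf3 had a rho of 0.692 with Postn and of 0.624 with Thbs4, and both values are descriptions of this plate.

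The 15 cluster 4 cells on 6 other plates gave values outside this plate, though the same clustering had put them in cluster 4. They were set against endomysial cells of their own plates, weighted by the number of cluster 4 cells on each. Of the 20 higher genes named here, 18 had the same sign there and 10 a log2 fold of 2 or more, and of the 12 lower genes 12 had the same sign and 5 were at −2 or less. C1qtnf3 was at 5.11 (detected in 8 of 15 cells), Postn at 4.62 (13 of 15), Cthrc1 at 5.78 and Thbs4 at 2.81 (15 of 15). C3 was at −2.96 and Efemp1 at −2.97.

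The imprinted genes were less alike. Mest was at 1.48 and Plagl1 at 1.83 on the other plates, while Igf2 was at −1.05 and Meg3 at −0.17. Igf2, Meg3 and H19 were detected in 0 of the 15 cells, and a count of 0 allows a share of up to 20.0% of cells. On the soleus plate Igf2 was detected in 17 of 45 cells (37.8%) and Meg3 in 22 (48.9%). Median depths on the other plates were 137576 to 582367 counts per cell, all below the 665294 of the paramysial cells here, and each of these plates carried another strain label, another muscle label or no muscle label. The part of depth, strain and muscle in these values was not tested.

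**Figure D5:**
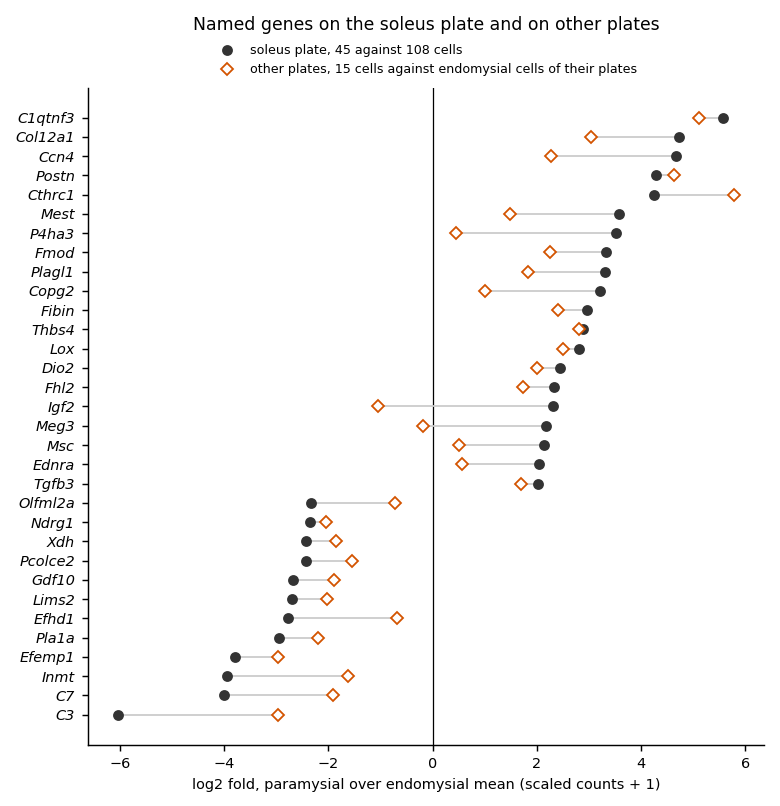
Log2 fold of the 20 higher and 12 lower named genes in paramysial against endomysial cells, on the soleus plate (dots, 45 and 108 cells) and for the 15 cluster 4 cells of 6 other plates against endomysial cells of their own plates (diamonds). The matrix genes lie on the same side of 0 in both, while Igf2 and Meg3 fall at −1.05 and −0.17 on the other plates.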

How the data were processed

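The deposited values were raw counts of reads, 1 row a gene and 1 column a cell. Per the study's methods, the authors made them by aligning Smart-seq2 reads to GRCm38 (TopHat2 with Bowtie) and counting them with featureCounts. The strand setting and annotation release are not given in the sources used here, the authors' fold changes were not used, and 1 column of the table without a label was left out. The protocol in the labels names heart although the tissue label is skeletal muscle. The authors removed cells with few counts or genes, cells with neither PDGF receptor gene, and cells with many genes as potential doublets, although 1 endomysial cell here had 0 counts of both receptors. No doublet caller was run here.

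Counts were scaled to 500000 per cell without the 92 spike-ins, and each cell with at least 200000 counts was also thinned without replacement to 200000 counts (seed 20200807). The fold of 2 on the log2 scale, 100 counts and 30% of cells are the study's own limits. Of 46517 gene identifiers, 46005 matched GENCODE M21, which gave positions and exon overlaps on GRCm38. Wells had 0 identical columns. The labels named no animal for a cell, so no test or replicate error was computed. The members and gene lists were chosen with earlier results of these data known.

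The genes named were the 20 with the largest and the 12 with the smallest log2 fold among those past the limit at full and thinned depth, list members past it, up to 4 of the most abundant members of a list, markers of cell types, and the 5 genes most like Postn, and 1 gene that the rule names is not reported here. Alternatives were other scalings (spike-ins, TMM, without the 50 most abundant genes), pseudocounts, detection limits, means, endomysial clusters, well rows and depth ranges. The fold code was tested on simulated data. Python 3.11.15, numpy 2.4.6, pandas 2.3.3, scipy 1.17.1, matplotlib 3.10.9 and, for TMM alone, edgeR 4.0.16 in R 4.3.3 were used.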

Additional observations from a re-analysis of the deposited data

How the results depend on the processing

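The 20 higher and 12 lower named genes kept their direction in all 340 and 204 values of 17 alternative settings, and 14 and 7 of them stayed past a log2 fold of 2 in each setting. Part of this was fixed in advance. Detection at 20 scaled counts and no filter on low genes change which genes are compared but leave each fold as it was. The thinned counts were themselves used to choose the named genes. The counts of genes past the fold (24 higher, 17 lower) depended more on the settings. They were 60 and 29 with detection at 20 scaled counts, 278 and 326 with no filter on low genes, 111 and 39 with means of log2 values, 88 and 10 with scaling to the spike-ins, 45 and 48 in well rows G to K, 13 and 11 in rows L to P, and 95 and 101 at a log2 fold of 1. With a pseudocount of 10 the counts were 16 and 11, and without endomysial cluster 3 they were 34 and 33. Fewer cells or a looser limit is part of the construction of the row, filter and fold settings, and for the others the cause was not tested. The median log2 fold of −0.07 turned to 0.39 with means of log2 values and to 0.77 with the spike-ins, over the genes compared under each. The share of endomysial cells with at least 3 paramysial markers was 9.26% and became 63.9% with detection at 20. Without cells over 5% mitochondrial or 3% spike-in counts, an alternative chosen after seeing the data, the counts were 25 and 19. No paired analysis was possible because the groups came from 1 pooled suspension, shared no replicate numbers and were compared without a test. With 1 plate and 1 pool, differences between animals could not be measured, and reads without molecular identifiers carry amplification noise, so that low values of a gene in 1 cell are imprecise.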

Other observations

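Some abundant members of the matrix, protease and growth factor lists were not past the fold. Aspn, which encodes asporin, a small proteoglycan that binds collagen, had means of 1086 and 339.9 scaled counts in paramysial and endomysial cells (log2 fold 1.67), Mmp14, a membrane-bound collagenase, 619.7 and 245 (1.34), Angptl1 434 and 172 (1.33), and Col6a3, a chain of the microfibrillar collagen VI, 789 and 391.8 (1.01). Timp3, an inhibitor of matrix metalloproteinases, was on the other side, with means of 151 and 521 (−1.78), and 21.3% of its exon bases are shared with Syn3. The WNT list had 2 genes compared with a median log2 fold of 0.95, the 7 PDGF, FGF and VEGF genes one of 0.38, and the 8 contractile genes one of 0.49, each with 0 genes past the fold.

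Of the 8 enzymes of retinoid, steroid and xenobiotic metabolism compared, 0 were past the fold, and the median log2 fold was −1.29 beside −0.07 over all genes. Gstm1, a glutathione transferase, had means of 174 and 496 (−1.51), Adh1, which oxidises retinol, 98.5 and 291 (−1.55), and Hsd11b1, which activates glucocorticoids, 81.7 and 260.0 (−1.66). Htra3, a secreted protease, had means of 369 and 839.6 (−1.18). The 14 immediate early genes, which respond to dissociation as well as to growth factors, had a median of −0.38 with 0 past the fold, and this median turned to 0.34 with scaling to the spike-ins, below the 0.69 of all genes. No gene of the cell cycle list was among the genes compared.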
